A study of Sorghum bicolor with 12 samples.

Results

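Among 28785 Sorghum probes for 28587 transcripts, 48 probes for 48 transcripts were lower by more than 2-fold in droughted leaves than in control leaves in all 3 replicates, while their mean level in heated leaves stayed within 2-fold of control. The members were chosen on log2 ratios of each treated array to the Control array that carried its replicate number, computed from the deposited normalised values. A ratio below -1 was required in each Drought replicate, the mean Heat ratio had to lie between -1 and 1, and every spot of the probe had to be well above background on the 3 Control arrays. These conditions held for 49 probes, of which 1 was left out by the rule and is not reported here.

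All plants were Sorghum bicolor of the R16 variety, from which the youngest leaves were taken after a 3 h incubation in the dark. Drought plants had no water for 3 days from 14 days after sowing and were incubated at 28°C. Heat plants were watered and incubated at 50°C, Combined plants received the 3 days without water followed by 50°C, and Control plants were watered and kept at 28°C. Each group had 3 biological replicates, each 1 array of leaves pooled from several plants, and the 4 arrays with the same replicate number lay on the same slide. Among marker genes named in the study's annotation, 5 of 5 photosynthesis markers of leaves were well above background on all 12 arrays. These were a Rubisco small subunit, Rubisco activase, 2 phosphoenolpyruvate carboxylases and LHCB6. So were 19349 of the 28785 probes and 12 of 16 epidermal markers, so this is only a weak check of the leaf label. In whole leaves, fewer cells of a type and less RNA per cell cannot be told apart.

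Water shortage closes stomata, limits carbon supply and slows leaf growth, and transcripts for light harvesting, cell walls, cuticle and specialised metabolism are commonly reduced as growth stops. Severe heat shock redirects transcription towards chaperones. A transcript that is low after drought and near its control level after heat can therefore be followed into the combined treatment, where both conditions act on the same leaf. Whether such transcripts were lower in heated leaves that had also lost water is the question addressed here, by setting Combined against Heat: no Combined array entered the choice of members, and this comparison shares no array with Drought against Control. It does use the Heat arrays, whose mean ratio to Control the rule held between -1 and 1. Without that condition the median difference between Combined and Heat was -0.57 over 221 probes, against -0.85 over the 48 members. Deviations of same-slide arrays from their group means also correlated (0.04 to 0.62), so the choice of members can shift this comparison. Over all 22716 probes tested, Drought to Control and Combined to Heat ratios correlated on the same slide (Pearson r = 0.6, 0.55 and 0.61). They also correlated between slides (0.44 to 0.58). The size of any shift was not tested. Gene names are those of the Arabidopsis genes to which the study's annotation likened each transcript, and the roles given below are known from Arabidopsis or other plants.

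The members stood on all 10 chromosomes, with between 1 member (chromosome 6) and 9 members (chromosome 2) each, as read from the gene identifiers. A single pair lay close together: the receptor lectin kinase Sb10g011170.1 and a putative chloroplast nucleoid DNA-binding protein, Sb10g011210.1, on chromosome 10. Of the 48 transcripts, 44 carried an annotation, 4 of them as "unknown protein". Duplicate spots of the same probe were present for 18 members, and these differed by a median of 0.10 on the log2 scale.

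Levels are given on the log2 scale relative to the 75th percentile of the same array, so that a difference of 1 is a 2-fold change, and levels of different probes cannot be set against each other. The Drought against Control values chose the members and are given as a description. The median log2 ratio of the 48 members was -1.37 in replicate 1, -1.23 in replicate 2 and -2.70 in replicate 3, whereas over the 22716 probes tested it was -0.12, -0.06 and -0.10. Replicate 3 had the lowest ratio in 38 of the 48 members. The spread of all probes was also widest there, with an SD of the ratio of 1.52 in replicate 3 against 0.99 and 0.75 in replicates 1 and 2. Markers moved between these groups too: the summed linear signal, relative to each array's 75th percentile, was 9.65 to 16.2 in Drought and 15.3 to 35.0 in Control for the 5 leaf markers (LHCB6 among them, a member that the rule chose for its Drought ratio), and 13.8 to 25.6 in Drought and 27.6 to 33.8 in Control for 16 epidermal markers (KCS, CER and WBC11 genes, 1 of them, a WBC11, likewise a member). Markers could be named only where the study listed them as changed in these samples, and their part in the Drought ratios was not tested. The mean ratio over the 3 replicates ran from -3.19 to -1.15 among members, with a median of -1.79.

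The largest mean ratio belonged to Sb09g023180.1, a protein of unknown function, with log2 levels of -1.89, -1.31 and -5.32 on the Drought arrays against 0.57, 0.00 and 0.48 on the Control arrays. The third Drought array lay far below the others in this transcript. PHT2;1, a low affinity phosphate transporter of the chloroplast, read -5.31, -5.32 and -7.97 in Drought against -3.67, -3.93 and -3.15 in Control. It was well above background on 2 of the 3 Drought arrays. RLP2, a receptor-like protein, was not well above background on any Drought array. Its mean was at least 1.53-fold lower there. This bound is set by the dimmest signal that counted as above background and makes no allowance for replicate spread. The same held for Sb04g032070.1 (at least 2.31-fold lower), RL6 (at least 2.41-fold), GER1 (at least 1.88-fold) and CYP71B23 (at least 1.40-fold). Members near the limit had far smaller ratios: the DNAJ protein Sb01g016680.1 (-1.0, -1.14 and -1.31) and the receptor kinase Sb02g000390.1 (-1.41, -1.01 and -1.93) lay just inside. On the levels used for the tests, the DNAJ ratio in replicate 1 was -0.99, and the rule on those levels gave 47 members. The transcripts PACid 1969271, with ratios of -0.99, -1.10 and -1.43, and PACid 1955041, with -1.21, -0.99 and -2.96, lay just outside.

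**Figure D1:**
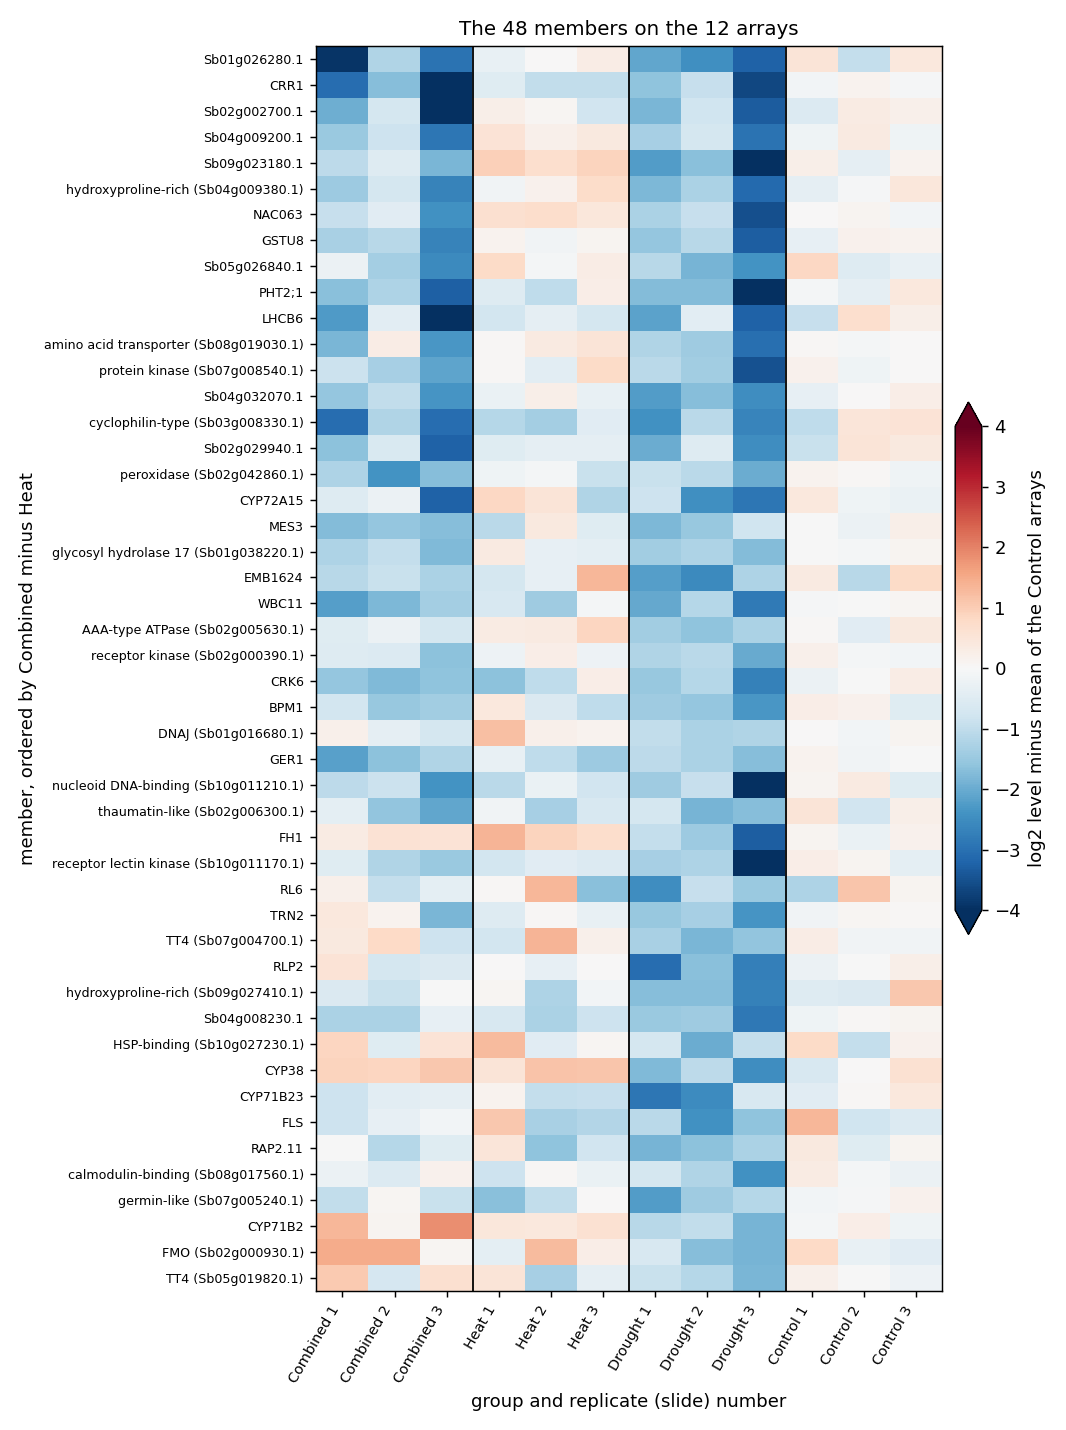
Log2 level of each of the 48 members (rows, ordered by the difference between Combined and Heat) on the 12 arrays (columns, by group and replicate number), minus the mean of its 3 Control arrays. All members are blue on the Drought arrays, as the rule required, most deeply in replicate 3, and the upper rows are blue again on the Combined arrays. Before the Control mean is subtracted, CRR1 read -7.22 on Combined array 3 against -3.09 on Heat array 3. It was well above background on 2 of the 3 Combined arrays.

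The Heat values were likewise used by the rule. Mean Heat ratios spanned the whole window, from -0.99 for the cyclophilin-type isomerase Sb03g008330.1 to 0.98 for the actin-binding formin FH1, with a median of -0.14. In 28 of the 48 members the mean lay within 0.5 of control. On single slides the ratios reached -1.86 at the lowest and 1.57 at the highest, so that near control in heat describes the mean of the 3 replicates and not every leaf sample. FH1 read -3.77, -4.25 and -4.42 in Heat against -5.02, -5.41 and -4.95 in Control, all Heat arrays being above all Control arrays. CYP38, a thylakoid cyclophilin needed for assembly of photosystem II, gave 2.64, 3.26 and 3.23 in Heat against 1.48, 2.13 and 2.74 in Control.

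Most members were lower in Combined than in Heat leaves, yet few differed by more than the replicate spread allowed a test to call. The fitted log2 difference was below 0 in 38 of the 48 members and below -1 in 22, with a median of -0.85, where the median over all probes tested was 0.00 and 8.28% of them lay below -1. In the limma fit without a slide term, 3 members were called lower (adjusted p under 0.05 over all 22716 probes and more than 2-fold), which is 6.25% of the members beside 1.2% of all probes tested, and no member was called higher beside 3.41% of all probes. Of these 3, the glycosyl hydrolase Sb01g038220.1 was well above background on all 12 arrays, Sb01g026280.1 on 1 Combined array and Sb04g032070.1 on none, so that the sizes of these last differences were poorly measured. When only probes well above background on all 12 arrays were tested, the glycosyl hydrolase was the 1 call left among 28 members, where 1.24% of such probes were called lower. At an unadjusted p under 0.05, 22 members were lower and 0 were higher, against 14.2% and 13.5% of all probes. With slide as a block, which uses that Combined and Heat arrays of a replicate were hybridised together, 12 members fell (25.0%), where 4.71% of all probes did, and again no member rose (7.56% of all probes). The 3 members called without the block were among these 12. Of the 9 called with the block only, CRR1, NAC063 and the peroxidase Sb02g042860.1 were well above background on 2 of the 3 Combined arrays and the others on all 3.

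Counted without a model, the 3 Combined arrays all lay below the 3 Heat arrays in 19 of the 48 members (39.6%, against 16.8% of all probes tested), and all above them in none (14.5% of all probes). Within slides the median difference between Combined and Heat over members was -0.97, -0.58 and -1.41 on slides 1, 2 and 3, against -0.04, -0.02 and 0.08 over all probes. The Combined array was the lower in 35, 38 and 37 of the 48 members on these slides, and 6 members were more than 2-fold lower on every slide (12.5%, against 0.696% of all probes). Leaving out Combined replicate 1 or 3, or any 1 of the Heat replicates, left 0 members called lower without a block. In these fits 0.0484% to 0.251% of all probes were called lower. Without Combined replicate 2, 15 members were called lower, the 3 called with all arrays among them, and 1, CYP71B2 (Sb01g034650.1), higher. Of all probes, 7.7% were called lower and 9.28% higher in that fit.

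**Figure D2:**
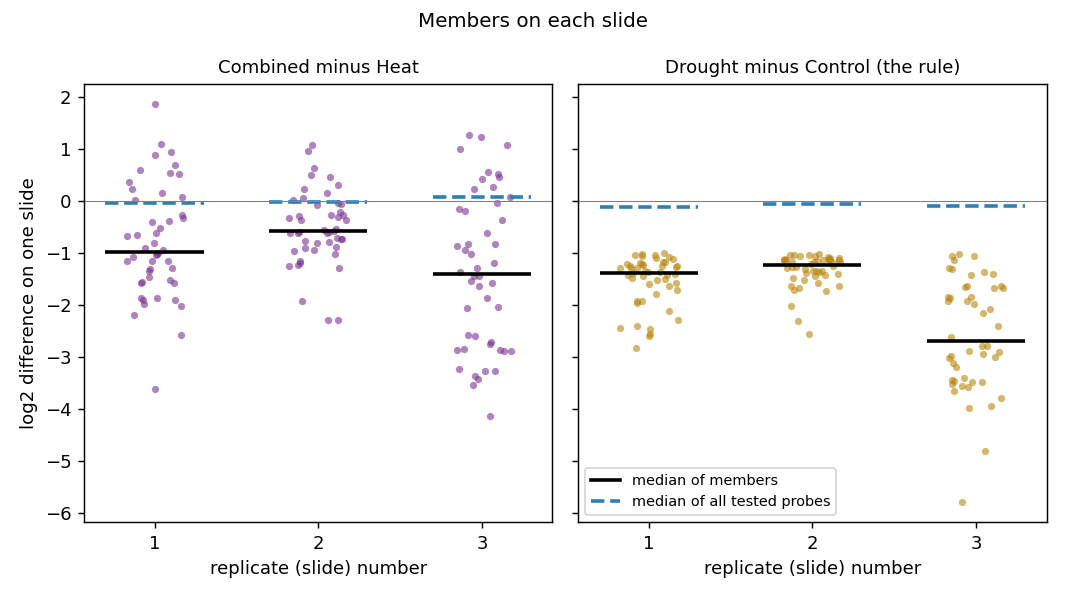
Log2 difference on each slide between Combined and Heat (left) and between Drought and Control (right) for the 48 members (points), with the median of members (solid line) and of all 22716 tested probes (dashed line). The members' median lies below that of all probes on every slide, most clearly on slide 3 (-1.41 for Combined minus Heat and -2.70 for Drought minus Control).

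Combined arrays were dimmer than Heat arrays, with median signals of 222 to 298 against 365 to 434, and 31 members were well above background on all 3 Combined arrays while 42 were on all 3 Heat arrays. The 28 members well above background on all 12 arrays had a median difference of -0.93. Leaf, epidermis and dividing-cell markers also moved between these groups. Summed signal was 56.8 to 74.9 in Combined and 33.3 to 56.8 in Heat for the 5 leaf markers, 4.86 to 8.95 and 3.42 to 4.78 for the 16 epidermal markers, and 0.162 to 1.0 and 0.711 to 1.47 for 4 dividing-cell markers (AUR1 and cyclins). No marker was below background on every array. The markers could be named only where the study listed them as changed in these samples. The study also lists Rubisco activase and the cyclin CYC1BAT among its largest heat rises, and the dividing-cell sum was 0.0435 to 0.144 in Control. These sums therefore cannot be read as tissue make-up. The markers' part in the members' differences was not tested.

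**Figure D3:**
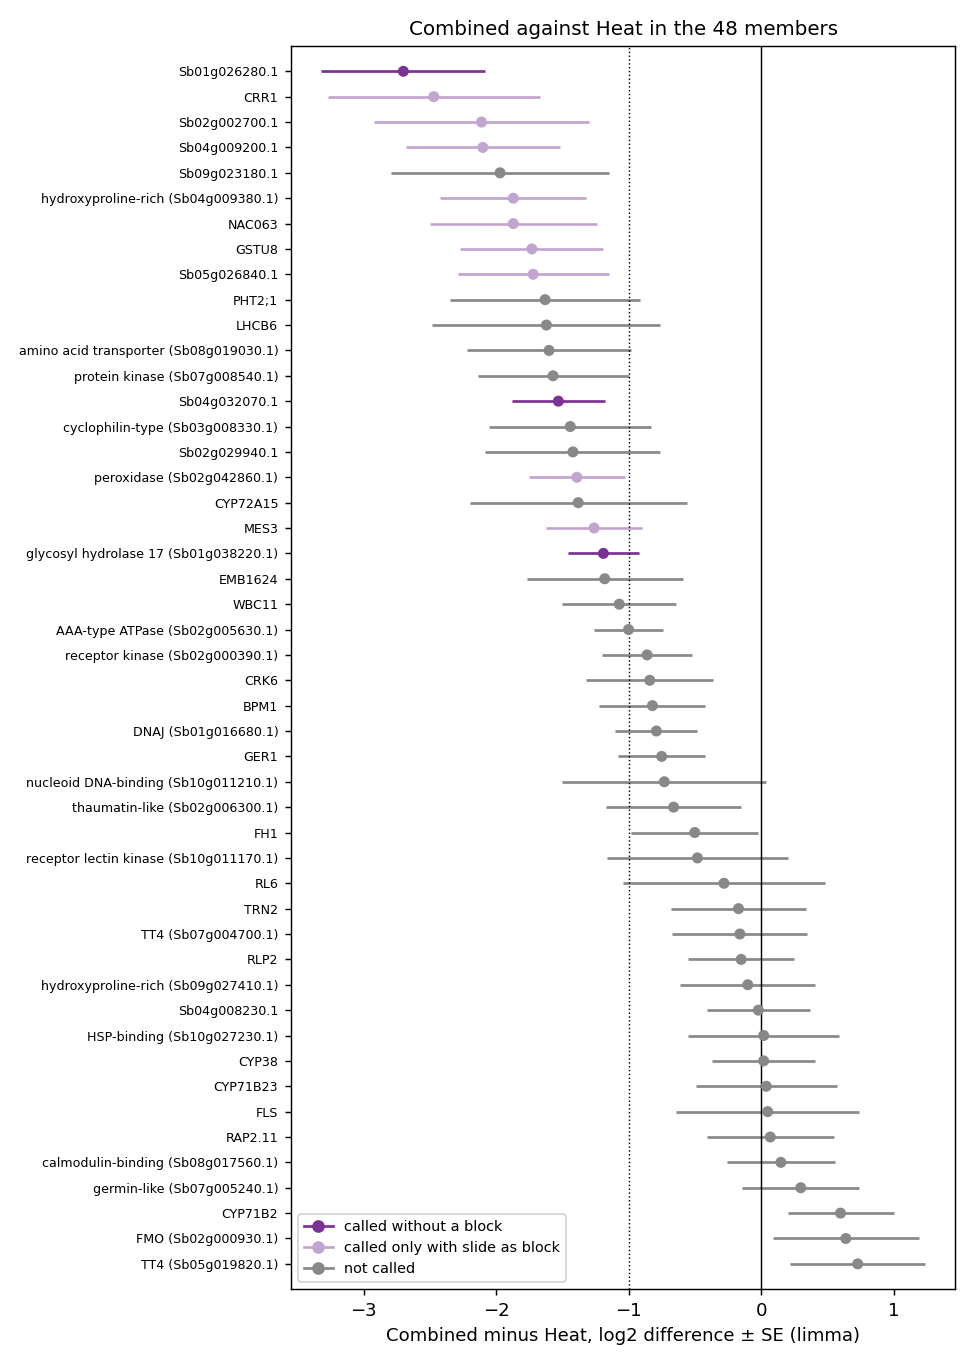
Fitted log2 difference between Combined and Heat (points) with its standard error (lines) for each member, from limma over all 12 arrays. The 3 members called without a block and the 9 called only with slide as a block lie at or below -1.19, while the 10 members above 0 reach 0.73 at most.

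Members annotated to photosynthesis numbered 3, of which none was called without a block and 1 with it. The differences between these members were not tested. CRR1, which Arabidopsis needs to build the chloroplast NDH complex of cyclic electron flow, read -5.15, -3.79 and -7.22 in Combined against -2.57, -3.07 and -3.09 in Heat. Every Combined array was below every Heat array, and the difference of -2.47 ± 0.80 (SE) missed the threshold without a block (limma adjusted p = 0.088) and passed it with slide as a block (adjusted p = 0.0275). LHCB6, a minor light-harvesting antenna of photosystem II, read -0.23, 1.63 and -1.94 in Combined against 1.29, 1.68 and 1.34 in Heat. The 2 groups overlapped because slide 2 showed a difference of only -0.05, and the fitted difference of -1.62 ± 0.86 was not called (adjusted p = 0.246, and 0.092 with the block). Drought levels of LHCB6 followed the same order of replicates, -0.10, 1.61 and -1.21 against 1.12, 2.71 and 2.28 in Control. CYP38 gave 3.00, 2.97 and 3.20 in Combined against 2.64, 3.26 and 3.23 in Heat, a difference of 0.02 ± 0.39, although it read 0.36, 1.07 and -0.37 in Drought against 1.48, 2.13 and 2.74 in Control.

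Other members were annotated to the chloroplast or to protein folding. PHT2;1 read -5.25, -4.80 and -6.85 in Combined against -4.10, -4.59 and -3.30 in Heat, with no overlap. It was well above background on only 2 of the 3 Combined arrays. The differences on the 3 slides (-1.15, -0.21 and -3.54) were uneven, and it was not called (adjusted p = 0.171, and 0.137 with the block). The cyclophilin-type isomerase Sb03g008330.1 was lower on slides 1 and 3 (-1.91 and -2.58) and not on slide 2 (0.16). The putative nucleoid DNA-binding protein Sb10g011210.1 read -2.89 on Drought array 3 but 0.11 and 0.61 on Drought arrays 1 and 2, and its Combined values of 0.48, 0.65 and -0.88 overlapped the Heat values of 0.45, 1.26 and 0.75. Of the 2 chaperone-related members, the DNAJ protein Sb01g016680.1 differed by -0.79 between Combined and Heat (limma adjusted p = 0.133). With the block its adjusted p was 0.0494, at a difference under 2-fold. The heat shock protein binding transcript Sb10g027230.1 had slide differences of -0.40, -0.03 and 0.47.

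**Figure D4:**
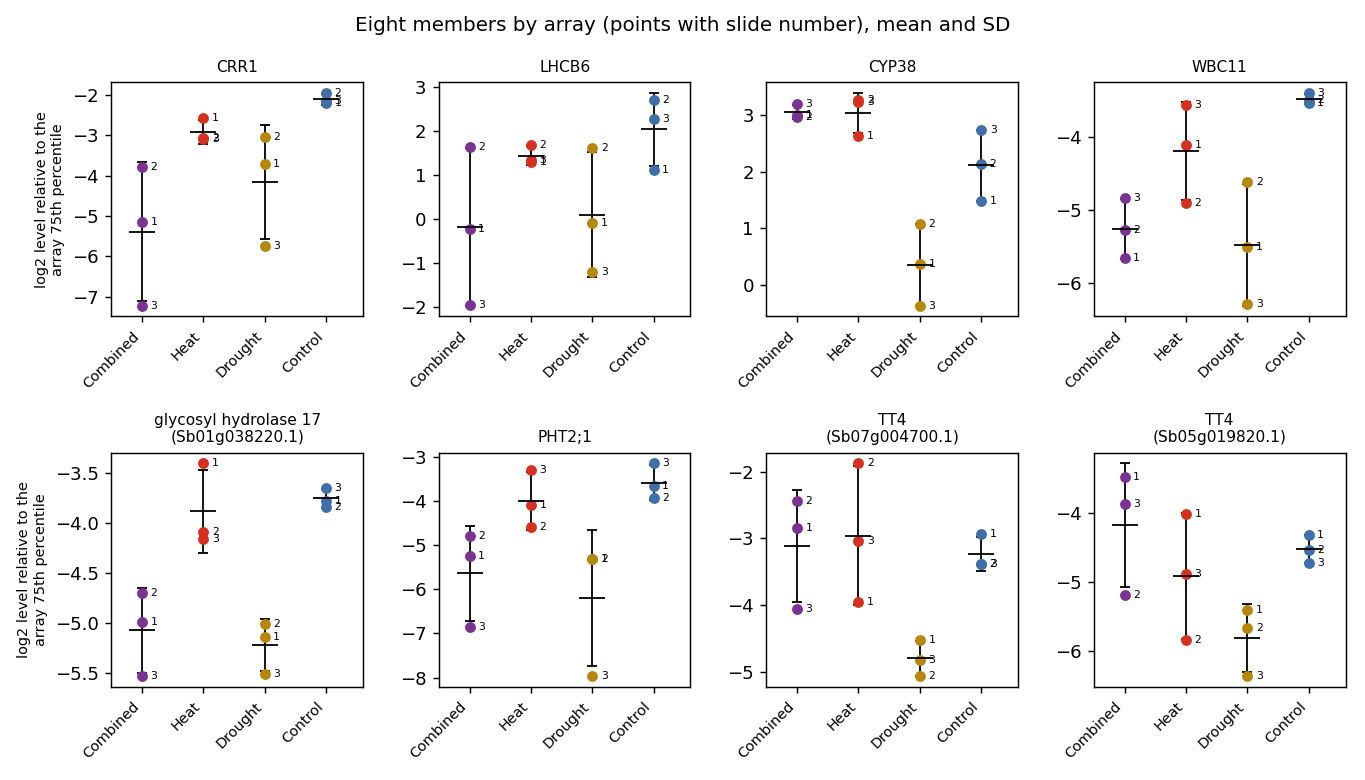
Log2 level relative to the array's 75th percentile of 8 members by group, with points numbered by slide and bars for the mean and SD of 3 arrays. CRR1 and the glycosyl hydrolase 17 were lower on all Combined than on all Heat arrays, LHCB6 was level on slide 2, and CYP38 and both TT4 transcripts overlapped between Combined and Heat.

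The 3 cell wall members and the cuticle transporter WBC11 all lay below 0 for Combined minus Heat, with 1 of these 4 called without a block and 2 with it. A glycosyl hydrolase of family 17, Sb01g038220.1, a family that includes enzymes cleaving wall glucans and callose, fell by 1.19 ± 0.27 in Combined relative to Heat (limma adjusted p = 0.0373, and 0.016 with slide as a block). Its levels were -4.99, -4.70 and -5.53 in Combined against -3.41, -4.09 and -4.16 in Heat, and -5.14, -5.01 and -5.51 in Drought against -3.78, -3.84 and -3.65 in Control, the Drought levels being low by the rule. All Combined arrays lay below all Heat arrays. The hydroxyproline-rich glycoprotein Sb04g009380.1, of a family of structural wall proteins, differed by -1.87 ± 0.55 and was called with the block (adjusted p = 0.0411) and not without it (0.0682). A second hydroxyproline-rich transcript, Sb09g027410.1, had an even deeper Drought ratio on slide 3 (-3.79) but differed by only -0.10 ± 0.51 between Combined and Heat. It was well above background on only 1 Drought array. WBC11, an ABC transporter that exports wax and cutin precursors to the leaf surface, read -5.66, -5.28 and -4.84 in Combined against -4.11, -4.90 and -3.56 in Heat. It was lower on all 3 slides, by 1.55, 0.37 and 1.28, and the fitted difference of -1.07 was not called (adjusted p = 0.143). FH1, whose formin nucleates actin near the plasma membrane, read -6.08, -6.59 and -8.42 in Drought against -5.02, -5.41 and -4.95 in Control. FH1 was well above background on 2 of these Drought arrays. Its Combined levels of -4.81, -4.56 and -4.57 were just below the Heat levels without overlap, a difference of -0.50 ± 0.48 that was not called (adjusted p = 0.519).

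None of 3 flavonoid members was called. TT4 encodes chalcone synthase, which makes the first flavonoid skeleton, and FLS, flavonol synthase, acts later in the same route. The TT4 transcript Sb05g019820.1 read -5.40, -5.67 and -6.36 in Drought against -4.32, -4.53 and -4.72 in Control. In Combined it read -3.48, -5.19 and -3.87, against -4.02, -5.84 and -4.88 in Heat, higher on each slide, by 0.54, 0.64 and 1.01. This was the only member higher on all 3 slides (2.08% of members, against 28.7% of all probes), and the fitted difference of 0.73 ± 0.51 was not called (adjusted p = 0.364) and turned to -0.27 with normexp background correction. The other TT4 transcript, Sb07g004700.1, had uniform Drought ratios (-1.58, -1.67 and -1.43) and slide differences of 1.11, -0.57 and -1.01 between Combined and Heat. FLS had slide differences of -1.90, 0.96 and 1.08, and was well above background on 1 Drought, 1 Heat and 2 Combined arrays, so its level in the stressed leaves was poorly measured.

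Several other members encode enzymes. GSTU8, a tau-class glutathione transferase that conjugates toxic compounds, read -4.16, -3.95 and -5.51 in Combined against -2.70, -2.99 and -2.75 in Heat, a difference of -1.73 ± 0.54 called with the block (adjusted p = 0.0347) and not without it (0.079). A putative peroxidase, Sb02g042860.1, differed by -1.39 ± 0.36, with -5.61, -6.74 and -6.06 in Combined against -4.54, -4.45 and -5.24 in Heat. The groups did not overlap and slide 2 gave the largest slide difference (-2.29). The call was again made with the block only (adjusted p = 0.019, against 0.0513 without it). The flavin-containing monooxygenase Sb02g000930.1 had nearly identical Drought ratios (-1.42, -1.40 and -1.41) and slide differences of 1.88, 0.23 and -0.19 between Combined and Heat. Of 3 cytochromes P450, enzymes that hydroxylate many plant metabolites, CYP72A15 was lower on every slide (-1.34, -0.77 and -2.03, adjusted p = 0.291). It was well above background on only 2 Combined arrays and 1 Drought array. CYP71B2 (Sb01g034650.1) averaged -2.98 in Combined and -3.58 in Heat, and CYP71B23 was not above background on any Combined array. A different transcript annotated as CYP71B2 is among the largest drought rises listed by the study. The 2 germin-like transcripts, of a family of extracellular proteins that includes oxalate oxidases, were not called: Sb07g005240.1 had slide differences of 0.70, 1.08 and -0.87, and GER1 was well above background on 1 Heat and 0 Combined arrays.

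Receptor and kinase transcripts were the largest annotated group, with 5 members, none of which was called at more than 2-fold. The protein kinase Sb07g008540.1 read -4.26, -4.73 and -5.50 in Combined against -3.35, -3.82 and -2.63 in Heat, without overlap, and differed by -1.57 ± 0.57 (adjusted p = 0.114, and 0.075 with the block). The receptor kinase Sb02g000390.1 read 2.23, 2.18 and 1.09 in Combined against 2.55, 2.99 and 2.53 in Heat. These groups did not overlap either, and the difference of -0.86 was under 2-fold (limma adjusted p = 0.14, and 0.0458 with the block). The cysteine-rich receptor kinase CRK6 was level on slide 1 (0.08) and lower on slides 2 and 3 (-0.73 and -1.87). The receptor lectin kinase Sb10g011170.1, whose Drought ratio reached -3.99 on slide 3, showed slide differences of 0.24, -0.73 and -0.94. This kinase was well above background on 2 Drought and 2 Combined arrays. RLP2 was well above background on only 1 of the 3 Heat arrays and on no Combined array. MES3, an esterase that releases active auxin or jasmonate from its methyl ester, had its smallest Drought ratio in replicate 3 (-1.78, -1.29 and -1.01). Its Combined levels of -2.36, -2.17 and -2.33 were the tightest of the called members, against -1.71, -0.25 and -1.13 in Heat, and the difference of -1.26 ± 0.36 was called with the block (adjusted p = 0.0327, against 0.0637 without it). The pathogenesis-related thaumatin-like transcript Sb02g006300.1 and the calmodulin-binding transcript Sb08g017560.1 were not called, at -0.66 ± 0.51 and 0.15 ± 0.41.

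Among 3 transcription factors, NAC063 alone was lower throughout. It read -5.74, -5.26 and -7.24 in Combined against -4.16, -4.10 and -4.36 in Heat, a difference of -1.87 ± 0.63 that was called with the block (adjusted p = 0.0268) and not without it (0.0949). It was the only member whose transcript had a second probe on the array, and that probe gave a similar difference of -1.51 (adjusted p = 0.114), with Drought ratios of -1.70, -0.93 and -3.41 that narrowly missed the rule. RL6, a MYB-like factor related to RADIALIS, and RAP2.11, an AP2-type factor, were dim in most groups. RL6 had slide differences of 0.16, -2.29 and 1.28, the widest disagreement between slides among these factors, and RAP2.11 had -0.51, 0.46 and 0.27.

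Of the remaining annotated members, an AAA-type ATPase, Sb02g005630.1, had the smallest standard error among members, 0.26. It read 1.13, 1.35 and 0.90 in Combined against 1.93, 1.96 and 2.47 in Heat, and passed the adjusted p (0.0497, and 0.0254 with the block) at a difference of -1.0 that was just under 2-fold. An amino acid transporter, Sb08g019030.1, was lower on slides 1 and 3 (-1.87 and -2.85) and level on slide 2 (-0.07). It was well above background on only 2 of the 3 Combined arrays. EMB1624, annotated as a translation initiation factor, read -5.77, -5.55 and -5.94 in Combined against -5.38, -5.01 and -3.34 in Heat. This difference was non-overlapping but uneven (-1.18 ± 0.59, adjusted p = 0.218), and EMB1624 was well above background on only 1 of the 3 Combined arrays. BPM1, an adaptor that brings proteins to a ubiquitin ligase, was not well above background on any Combined array. It had slide differences of -1.16, -0.94 and -0.37 and was not called (-0.82 ± 0.40, limma adjusted p = 0.206). With the block the adjusted p was 0.0426, at a difference under 2-fold. Its bound of 1.73-fold lower in Combined than in Heat holds for the group means only, without allowance for replicate spread. TRN2, a tetraspanin that patterns leaf growth, had slide differences of 0.95, 0.07 and -1.53.

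The 8 members with no known function had the lowest median of any group, -1.84, and all 8 were below 0. Most of the other groups held only 1 to 3 members. These 8 members held 2 of the 3 calls made without a block and 5 of the 12 made with it. The 764 tested probes of this group that could be named, members included, had a median of 0.44. Of these probes 13 were called lower and 137 higher (36 and 216 with the block). They could be named only where the study listed them as changed. Sb01g026280.1, with no annotation, read -8.45, -5.73 and -7.48 in Combined against -4.82, -4.50 and -4.24 in Heat, and was called lower at a fitted difference of -2.70 ± 0.62 (adjusted p = 0.0377). It was well above background on 1 of the 3 Combined arrays. Sb04g032070.1 was also called lower (adjusted p = 0.0359), but it was not well above background on any Combined array. Its difference of means has only a bound, at least 1.21-fold lower in Combined than in Heat. Sb04g009200.1 read 0.78, 1.44 and -0.64 in Combined against 2.81, 2.45 and 2.65 in Heat, and, by the rule, Drought levels of 0.92, 1.57 and -0.70 against 2.10, 2.61 and 2.08 in Control. The Combined and Heat levels did not overlap, and the difference of -2.10 ± 0.58 was called with the block (adjusted p = 0.0171, against 0.0595 without it). Sb02g002700.1 (-2.11 ± 0.81) and Sb05g026840.1 (-1.72 ± 0.57) were also called with the block only, with adjusted p values of 0.0363 and 0.0134. Sb09g023180.1, the member with the deepest Drought ratio, averaged -0.78 ± 0.65 in Combined and 1.18 ± 0.15 in Heat (SD, n = 3 each). It was not called (adjusted p = 0.15, and 0.0903 with the block). The fit pools the spread of all 4 groups. The Drought SD of this member was 2.17, beside a fitted SE of 0.82, and its part in this result was not tested. In the fit of Combined and Heat arrays alone, no member was called lower, beside 0.0572% of all probes. Sb02g029940.1 showed no overlap (0.80, 1.83 and -0.78 in Combined against 1.95, 2.09 and 2.08 in Heat), and Sb04g008230.1 had slide differences of -0.62, 0.03 and 0.52.

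The members were set beside all named transcripts of their annotation groups, members included. Transcripts could be named only where the study's tables listed them as changed in these samples, so the counts that follow are no independent evidence. Of 25 tested probes with cuticle and very long chain fatty acid words, 0 were called lower and 7 higher in Combined than in Heat without a block (1 and 10 with slide as a block), with a median of 0.36, while WBC11 Sb02g027350.1 lay at -1.07. Among 44 cell wall probes the median was 0.76 with 1 lower and 8 higher (4 and 18 with the block), the 1 lower being the member Sb01g038220.1. Of 10 photosynthesis probes 0 were lower and 1 was higher (2 and 1 with the block), with a median of -0.71. Of 14 phenylpropanoid probes none was called in either direction (0 lower and 2 higher with the block), with a median of 0.60. Receptor and kinase probes numbered 184, with 2 lower and 21 higher (8 and 38 with the block) and a median of 0.20. Transcription factor probes numbered 181, with 1 lower and 35 higher (6 and 58 with the block) and a median of 0.60.

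Without the Heat condition, 221 probes met the rule in Drought and Control, of which 13 were called lower in Combined than in Heat (5.88%, against 1.2% of all probes) and 3 higher (against 3.41% of all probes). With slide as a block 39 of them were called lower (17.6%, against 4.71% of all probes) and 3 higher (against 7.56%). The rule required the Control arrays to be high. Relative to Control, the mean Combined ratio was below 0 in 41 of the 48 members and below -1 in 28, with a median of -1.24. Over all probes tested the median was -0.08, with 21.3% below -1. The Combined ratio was below -1 on all 3 slides in 13 members (27.1%, against 12.3% of all probes tested). Relative to Drought, whose arrays were chosen low, the mean Combined level was the higher in 38 members. Both are descriptions, since the choice of members shifts them.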

How the data were processed

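Leaf RNA of 12 samples (4 groups of 3) was labelled with Cy3 and hybridised by the authors to custom 1-colour Agilent arrays, 4 to a slide. The deposited scanner files hold a processed signal intensity per spot, background-corrected by Feature Extraction, and a flag for spots well above background (unit other, as the authors deposited it). The deposited series matrix holds log2 values, which were found to be the log2 processed signal minus each array's 75th percentile, centred on each probe's median over the 12 arrays (99.9% of values within 0.02). Depth is unknown for arrays, and the number of arrays limits the precision.

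Members were chosen by the rule on the series matrix. Levels and tests used log2 processed signal minus the array's 75th percentile over non-control spots, with spots of a probe averaged and outlier-flagged spots left out. Probes well above background on all 3 arrays of at least 1 group were tested (22716) with limma 3.58.1 in R 4.3.3 (4 group means, Benjamini-Hochberg adjustment over all tested probes). A call needed an adjusted p under 0.05 and a log2 difference beyond 1. All 48 members passed the filter through their Control arrays. The script was tested on simulated data. Contrasts used by the rule were not tested.

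Replicate numbers coincide with slides in the array headers. Positions on slides 1, 2 and 3 were 1, 1 and 2 for Combined, and 4, 2 and 1 for Heat. They were 3, 4 and 3 for Drought, and 2, 3 and 4 for Control. Treatment and array position were therefore partly confounded, and the fit with position cannot fully separate them. Deviations from group means correlated above 0.1 for 17 of 18 same-slide array pairs (0.04 to 0.62), so the block is given as an alternative beside the fit without it. P-values rest on the spread between 3 replicates, pooled over the 4 groups, Drought and Control included, and moderated across probes by limma. Only the fit of Combined and Heat arrays alone leaves Drought and Control out. Alternatives covered values, background correction, normalisation, filters, slide, array position, left-out arrays and the rule itself.

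Transcripts were named by matching the fold changes of the study's supplementary lists to the matrix ratios (2971 probes, all 48 members uniquely), used for identifiers and annotation only. Some of those lists were held in part. Gene groups were assigned by annotation words. Named genes were the 10 members with the largest Drought ratio, the 5 lowest and 5 highest for Combined minus Heat, those at the -1 limit and up to 4 per group. Other members were named after their values were seen. The members, lists and tests were chosen with earlier results of these data known. Promoter motifs and sequences were not analysed here.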

Additional observations from a re-analysis of the deposited data

Results flagged for a closer look

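The TT4 (chalcone synthase) transcript Sb05g019820.1 was picked out because its arrays moved in opposite directions in the 2 comparisons of unwatered with watered plants. It was higher in Combined than in Heat on all 3 slides, with a fitted log2 difference of 0.73 ± 0.51 that was not called (limma adjusted p = 0.364) and was -0.27 with normexp background correction, while it was lower in Drought than in Control in all 3 replicates. The difference between the 2 contrasts was not tested, because the rule for members fixed the Drought direction. It was the only such member of 48.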

How the results depend on the processing

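With the 48 members kept, or 28 of them where only probes detected on every array were tested, the median difference between Combined and Heat stayed below 0 under every alternative to the fit, between -1.06 (quantile normalisation) and -0.71 (without replicate 3), and ranged over -1.04 to -0.71 when 1 replicate or array was left out. The number of members called lower, 3 in the fit without a block, was less stable. It was 5 with the series matrix values (1.27% of all probes called lower) and 4 with quantile normalisation (1.58%). With the percentile taken over probes above background on all arrays it was 5 (1.5%), and 1 of 28 when only such probes were tested (1.24%). With the adjusted p alone it was 4, for which the share of all probes was not computed. It was 0 with normexp (0.242%), without a filter on dim probes (0.424%), with array position as a factor (0.0836%) and with Combined and Heat arrays alone (0.0572%). With the replicate block it was 12 (4.71%), and 13 with the block and series matrix values (4.81%). Left-out replicates and arrays gave 0 to 15 lower (0% to 7.7% of all probes) and 0 to 1 higher (0.0088% to 9.28%).

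Over the whole array 272 probes were lower and 774 higher in the fit without a block. They were 288 lower with series matrix values, 358 with quantile normalisation and 340 with the percentile over detected probes. The counts were 55 and 213 with normexp, 122 lower without a filter, 1071 and 1717 with the replicate block, 1093 and 1702 with the block on series matrix values, and 19 and 131 with array position as a factor. Leaving out a replicate gave 0 to 1142 lower and 2 to 1592 higher. Normexp moved the median of all probes to -0.30 and that of the members to -1.0, and testing all probes moved that of all probes to 0.11. The cause of these shifts was not tested.

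The rule gave 221 members without the Heat condition (13 called lower, 3 higher, median -0.57) and 463 at a 1.5-fold limit (22 lower, 1 higher, median -0.83). It gave 3 at a 3-fold limit (1 lower, median -0.82) and 28 with a Heat window of 0.5 on the log2 scale (3 lower, median -1.22). Applied to the levels used for the tests, it gave 47 (3 lower, median -0.86). In this fit without a block, 1.2% of all probes were called lower and 3.41% higher.

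Members followed singly were those named by rule and those with a limma adjusted p under 0.05 with the block. Part of this choice therefore rested on the result. The remaining members were not followed, among them TRN2, Sb04g008230.1 and Sb10g027230.1, whose slide differences had both signs. Of the 41 members followed singly, 28 kept their direction under every alternative. The other 13, none of them called in the fit without a block, changed sign. With normexp the difference was -0.27 for TT4 Sb05g019820.1, -0.56 for the germin-like Sb07g005240.1, -0.91 for CYP71B23, -0.79 for RAP2.11, -0.06 for CYP71B2, -0.48 for the monooxygenase Sb02g000930.1 and -0.83 for FLS. With quantile normalisation it was -0.14 for CYP38, -0.23 for CYP71B23, -0.23 for RAP2.11 and -0.31 for FLS, and with the percentile over detected probes -0.03 for CYP38. With array position it was 0.30 for RL6, -0.06 for Sb07g005240.1 and 0.20 for Sb09g027410.1. Leaving out replicates gave -1.06 to 0.72 for RL6, -0.55 to 0.09 for RLP2, -0.79 to 0.38 for TT4 Sb07g004700.1, -0.09 to 0.89 for Sb07g005240.1, -0.19 to 0.17 for CYP38, -0.22 to 0.54 for CYP71B23, -0.09 to 0.52 for Sb08g017560.1, -0.42 to 0.62 for RAP2.11, -0.50 to 0.20 for Sb09g027410.1 and -0.47 to 1.02 for FLS.

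The planned normexp correction on mean signals was run on median signals instead, chosen after the files were seen. The promoter motif description was not run.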

Other observations

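KCS5 (Sb10g009450.1), a condensing enzyme of very long chain fatty acid synthesis, is not a member. The members whose levels followed it most closely over the 12 arrays were GER1 (Pearson r = 0.85), WBC11 (0.80), the cyclophilin-type isomerase Sb03g008330.1 (0.79), CRK6 (0.78) and CRR1 (0.77). The arrays share the 4 treatments and the slides, so these values describe likeness over 12 arrays only. GER1 was well above background on 1 Heat array and the 3 Control arrays alone, so its place rests largely on undetected signal. The Drought, Heat and Control arrays among the 12 were used to choose the members.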
